A study of Sus scrofa with 3 samples.

Results

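The interferon response and signalling genes on the array were 64 probe sets for 43 genes, out of 10069 probe sets that carry a single gene name and 6765 genes in all. They were chosen by gene symbol alone. The names begin like IFIT, OAS, MX, ISG, IRF, GBP, STAT, JAK or IFNAR or belong to a short set of single genes. The rule uses no measured value, but it was set with earlier results of these data known. The symbols also take in a few genes whose products are not part of the interferon pathway in the narrow sense, such as HERC1, HERC3, ISG20L2 and PLAC8. A member is read here through the probe set with the highest mean signal, and 15 of the 43 genes have more than 1 probe set.

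RNA came from minipig lung and was read on 3 Affymetrix porcine arrays, 1 for each group. The sham lung comes from a minipig with a sham operation. In the ischemia-reperfusion model the artery to the left lung was occluded transiently, with the bronchus left alone so that the lung stayed ventilated. The left lung of such a minipig is the operated lung, and the right lung of such a minipig, whose artery was not occluded, is called non-operated. All animals were kept free of specific pathogens, and the labels give no breed, age, sex, occlusion time or reperfusion time. Whether both lungs after ischemia-reperfusion came from 1 animal, and whether RNA was pooled, is not stated in the labels. Each group is a single array, so no difference below has a p-value or an error between animals, and animal, RNA preparation and surgery cannot be told apart.

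Interferons are secreted proteins that cells release on sensing viral nucleic acid or on immune activation. They bind paired receptors, IFNAR1 with IFNAR2 for type I and IFNGR1 with IFNGR2 for type II, whose bound Janus kinases phosphorylate STAT proteins. A complex that holds STAT2 and IRF9 then switches on genes that hold an interferon-stimulated response element, among them the IFIT, OAS, MX and ISG15 genes, whose products block steps of viral growth. In lung, epithelial cells, endothelial cells and leukocytes can all answer interferon.

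Signals are on the log2 scale, so a difference of 1 is 2-fold. The floor for low signals was each array's median over all probe sets that are not controls, which was 7.33 in the sham, 7.31 in the non-operated and 7.31 in the operated sample. Signals no higher than the floor were replaced by it, and such a ratio is given as "at least". Of the 43 genes, 39 were above the floor on all 3 arrays and the other 4 (HERC3, IRF7, MX2 and STAT4) on some. Between probe sets of the same gene, the log2 difference from sham varied with a pooled SD of 0.39 over 801 genes in the operated lung and 0.41 over 783 genes in the non-operated lung. That SD covers disagreement between probe sets on the same arrays only. SFTPC, the surfactant protein C gene that marks lung alveoli, read 14.44, 14.56 and 14.52 on the sham, non-operated and operated arrays. The highest signals on these arrays were 14.83, 14.92 and 14.79, so SFTPC lies near the top of the range. Several other lung epithelial markers, described below, were higher than sham. SFTPC alone therefore does not show that the samples held equal amounts of alveolar tissue.

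A set of antiviral genes had higher signals in both lungs after ischemia-reperfusion than in sham. No receptor, Janus kinase or STAT gene passed 2-fold with the floor used here. STAT4 was under the floor in the operated lung, where it was at least 1.91-fold lower than sham. In the operated lung 8 of 43 members were at least 2-fold higher than in sham, which is 18.6%, against 8.65% of all 5097 genes counted. In the non-operated lung the count was also 8 of 43, against 8.96% of 5113 genes. RSAD2, OAS1, IFIT1, IFIT2, IFIT3, ISG15 and IRF1 passed 2-fold in both lungs, with IRF7 added in the operated and HERC3 in the non-operated lung. On the lower side were 3 members in each lung, IFI30, IRF8 and PLAC8. That share, 6.98%, is no larger than the 8.79% and 8.55% of all genes that lay past 2-fold on this side in the operated and the non-operated lung. The median log2 ratio over the members was 0.17 in the operated and 0.22 in the non-operated lung, beside -0.11 and -0.10 over all genes counted. Both comparisons use the same sham array, so they are not independent of each other.

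**Figure D1:**
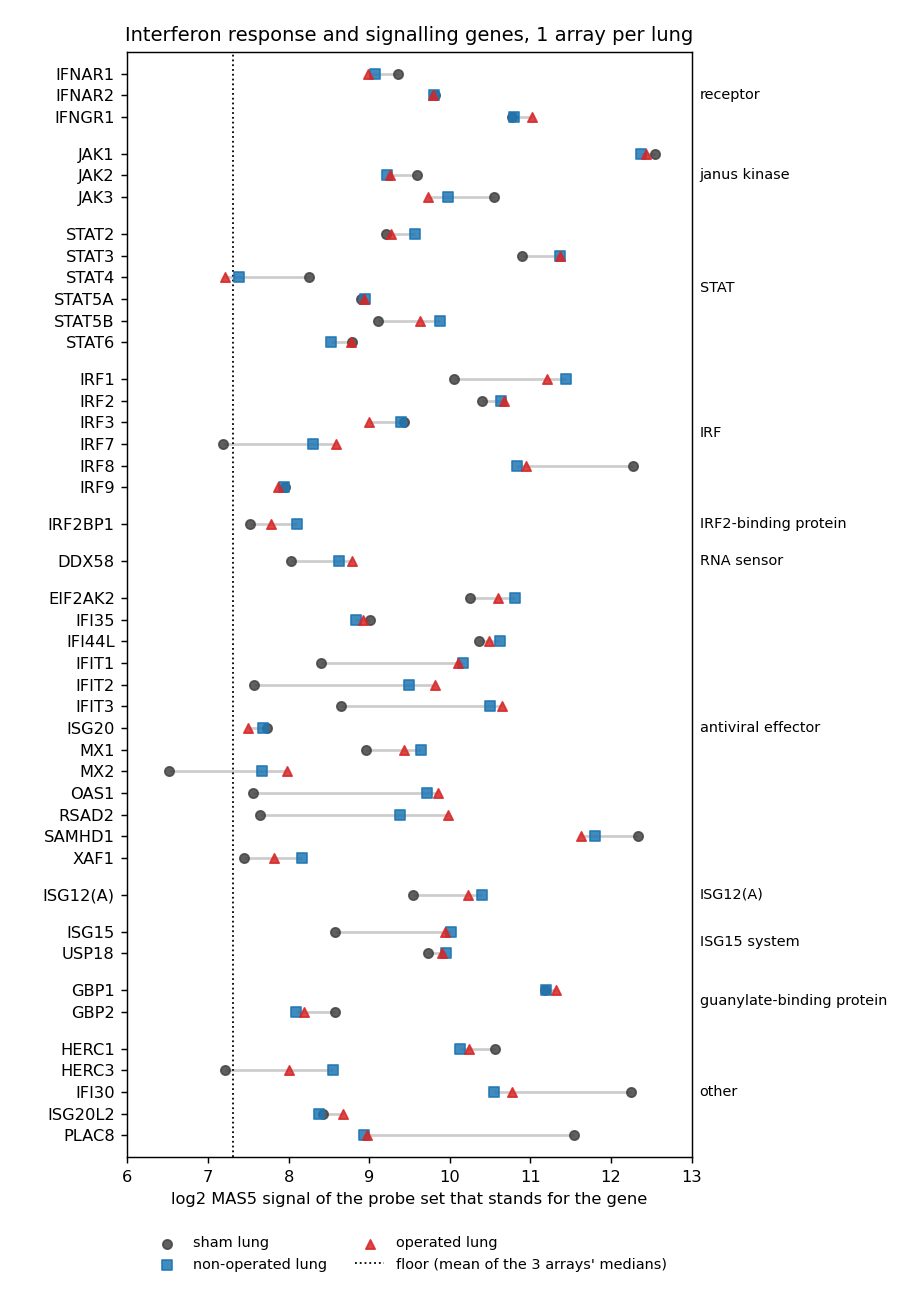
Log2 MAS5 signal (x axis) of each of the 43 member genes (rows, grouped by role) on the sham, non-operated and operated arrays, with the floor as a dotted line. The sham point stands to the left of both other points for RSAD2, OAS1, the IFIT genes, ISG15 and IRF1 and to the right for PLAC8, IFI30 and IRF8. Signals of different genes come from different probes and their positions are not comparable between rows.

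The widest differences on the higher side were in effector genes, whose products block steps of viral growth. RSAD2 encodes viperin, an enzyme that makes a chain-terminating nucleotide, and its signal was 7.65 in sham, 9.39 in the non-operated and 9.98 in the operated lung. OAS1, an oligoadenylate synthetase that is switched on by double-stranded RNA and activates an RNase, read 7.56 in sham, 9.72 in the non-operated and 9.85 in the operated lung. In both genes sham was the low array and lay just above the floor. RSAD2 was 5.02-fold higher in the operated and 3.34-fold higher in the non-operated lung, and OAS1 was 4.92-fold and 4.48-fold higher. By log2 ratio they ranked 47 and 48 from the top among the 5097 genes counted in the operated lung, and 134 and 65 among the 5113 in the non-operated lung.

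The IFIT genes encode proteins that bind the ends of foreign RNA and hold back its translation. IFIT2 read 7.57 in sham, 9.49 in the non-operated and 9.81 in the operated lung. IFIT3, its partner in a protein complex, read 8.65, 10.501 and 10.64 in the same order, and IFIT1 read 8.40, 10.17 and 10.10. All 3 were low in sham alone, and the lungs after ischemia-reperfusion lay within 0.32 of each other in each. In the operated lung IFIT2 was 4.73-fold, IFIT3 3.97-fold and IFIT1 3.24-fold higher than in sham, and in the non-operated lung they were 3.79-fold, 3.60-fold and 3.405-fold higher. The 3 genes are direct neighbours in the RefSeq annotation of the pig assembly Sscrofa11.1, in the order IFIT2, IFIT3, IFIT1, with 0 protein-coding genes between them.

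IFIT1 and IFIT2 are read by 3 probe sets each, which gives these differences a check within the arrays. For IFIT1 the second probe set above the floor read 8.34 in sham, 10.02 in the non-operated and 10.25 in the operated lung, a log2 difference of 1.91 for the operated lung beside 1.70 for the main probe set. Its other probe set was under the floor in sham, at 5.73, and read 8.74 and 8.53 in the other lungs. For IFIT2 the other probe set above the floor read 7.38, 9.43 and 9.54, and the last one read 6.24, 7.68 and 7.33. Every one of these 6 probe sets was lower in sham than in either lung after ischemia-reperfusion.

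Other antiviral effectors had smaller differences. Of the 13 effector genes, 5 were at least 2-fold higher in each lung, against 8.65% of all genes in the operated and 8.96% in the non-operated lung. Of the rest, 0 were lower, against 8.79% and 8.55% of all genes, and 8 lay between. MX1, a dynamin-like GTPase that traps viral nucleocapsids, read 8.96 in sham, 9.64 in the non-operated and 9.43 in the operated lung, ratios of 0.68 and 0.46. Its neighbour MX2 was under the floor in sham, at 6.52, and read 7.68 and 7.98, which gives at least 1.27-fold in the non-operated and at least 1.58-fold in the operated lung. With the floor moved to the 25th percentile, or with none, MX2 passed 2-fold in both lungs, and its second probe set was under the floor on every array. XAF1, a pro-apoptotic gene induced by interferon, read 7.45, 8.16 and 7.82, and EIF2AK2, the kinase PKR that halts translation on double-stranded RNA, read 10.25, 10.82 and 10.60. These 4 genes were lowest in sham, as the widest group was, but by less than 2-fold against the main floor.

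The remaining effectors were near sham or below it. IFI44L read 10.36, 10.62 and 10.49 in the sham, non-operated and operated lung. For IFI35, which binds the signalling adaptor NMI, the signals were 9.01, 8.83 and 8.93, and for the exonuclease gene ISG20 7.73, 7.68 and 7.501. SAMHD1, which degrades the nucleotides that retroviruses need, was high in sham at 12.33 and read 11.80 in the non-operated and 11.62 in the operated lung. That is a log2 ratio of -0.53 and -0.71, the lowest of the effector list in each lung.

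ISG15 is a ubiquitin-like protein that is joined to other proteins during the interferon response. Its signal was 8.57 in sham, 10.02 in the non-operated and 9.93 in the operated lung, 2.73-fold and 2.57-fold higher than sham. USP18 takes ISG15 off its targets and restrains the type I receptor. It read 9.73 in sham, 9.96 in the non-operated and 9.90 in the operated lung, ratios of 0.22 and 0.17, so these partners of a single pathway differed from sham by unequal amounts. ISG12(A), the array's symbol for a small interferon-stimulated protein gene, read 9.55, 10.40 and 10.22 and lay at 0.85 in the non-operated and 0.68 in the operated lung. The RNA sensor DDX58, known as RIG-I, read 8.03, 8.62 and 8.79, which is 0.59 and 0.75. The guanylate-binding proteins, large GTPases that attack the compartments of intracellular microbes, lay near sham. GBP1 read 11.18, 11.20 and 11.32, and GBP2 8.58, 8.09 and 8.19.

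Of the 6 interferon regulatory factors, IRF1 and IRF7 were higher than sham, IRF8 was lower and IRF2, IRF3 and IRF9 were within 2-fold. IRF1, a transcription factor that interferon gamma and inflammatory signals induce, read 10.05 in sham, 11.44 in the non-operated and 11.21 in the operated lung, 2.61-fold and 2.23-fold higher. IRF7, which amplifies the transcription of type I interferon genes, was under the floor in sham at 7.19 and read 8.30 and 8.59. It was thus at least 1.96-fold higher in the non-operated and at least 2.40-fold higher in the operated lung, and it passed 2-fold in both with a floor on the 25th percentile. The IRF7 probe set shares probes between transcripts, and the other IRF7 probe set was under the floor on all arrays.

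IRF8, a factor of monocytes, dendritic cells and B cells, ran the other way. Its signal was 12.28 in sham, 10.83 in the non-operated and 10.95 in the operated lung, 2.72-fold and 2.50-fold lower. IRF3, the factor that sensors activate first, read 9.43, 9.396 and 8.997. IRF9, the DNA-binding part of the type I complex, read 7.95, 7.94 and 7.87, and IRF2, which competes with IRF1, read 10.398, 10.63 and 10.67. IRF2BP1, a corepressor that binds IRF2, read 7.52, 8.10 and 7.78.

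Genes for receptors and signal carriers were mostly near sham, and 0 of 12 passed 2-fold in either lung. Over all genes, 8.65% were higher and 8.79% lower in the operated lung, and 8.96% and 8.55% in the non-operated lung. With a list of 12 genes, the count alone does not set it apart from all genes. For STAT4 in the operated lung the ratio is a bound. Both subunits of the type I receptor and IFNGR1 of the type II receptor had ratios between -0.37 and 0.25 in the operated and between -0.29 and 0.03 in the non-operated lung. IFNAR1 read 9.36 in sham, 9.07 in the non-operated and 8.99 in the operated lung, and IFNGR1 10.77, 10.80 and 11.02. IFNAR2 read 9.81, 9.80 and 9.79, but its second probe set read 8.45, 7.58 and 7.48, so its probe sets did not give the same ratio. JAK1, which serves both receptor types, read 12.55, 12.38 and 12.44. JAK2 of the type II receptor read 9.59, 9.22 and 9.26. JAK3, which serves interleukin receptors of lymphocytes, read 10.55, 9.97 and 9.73 and had the lowest ratio of the kinases, -0.57 in the non-operated and -0.82 in the operated lung.

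Among STAT genes, STAT2 of the type I complex read 9.21 in sham, 9.56 in the non-operated and 9.27 in the operated lung. STAT4, which carries interleukin-12 and type I interferon signals in T and NK cells, was highest in sham at 8.25 and read 7.38 and 7.21, with the operated lung under the floor. Against sham the non-operated lung was 1.82-fold lower and the operated lung at least 1.91-fold lower, and with no floor its log2 ratio in the operated lung was -1.04. STAT3, activated by interleukin-6, read 10.89, 11.37 and 11.37. STAT5B read 9.11, 9.88 and 9.63, yet its second probe set gave -0.28 and -0.02 where the main one gave 0.78 and 0.53. STAT5A, its neighbour in the annotation, read 8.89, 8.95 and 8.93, and STAT6, activated by interleukin-4, read 8.78, 8.53 and 8.77.

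**Figure D2:**
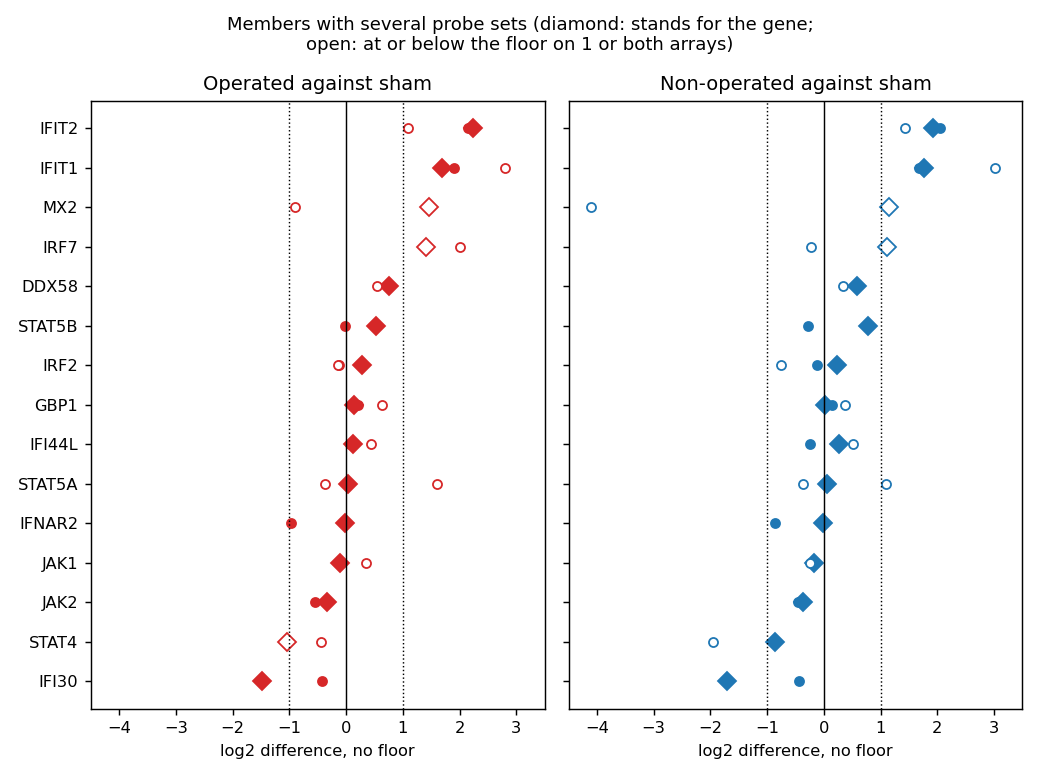
Log2 difference from sham (x axis) for every probe set of the 15 members with several, in the operated lung (left) and the non-operated lung (right), with no floor applied; diamonds are the probe sets that stand for the gene and open symbols had a signal at or below the floor on 1 or both arrays. All IFIT1 and IFIT2 probe sets lie above a difference of 1, whereas the 2 IFI30 probe sets lie apart, at -1.48 and -0.42 in the operated lung.

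The other members were chosen by their names and play other roles. PLAC8 encodes a small cysteine-rich protein of lymphoid and myeloid cells and had the widest difference of all members, with 11.54 in sham, 8.94 in the non-operated and 8.97 in the operated lung. It was 6.05-fold lower in the non-operated and 5.92-fold lower in the operated lung, and ranked 30 and 31 from the bottom among all genes counted. IFI30, a lysosomal thiol reductase that prepares antigens in antigen-presenting cells, read 12.25, 10.54 and 10.77, 3.25-fold and 2.78-fold lower than sham. Its second probe set read 8.28, 7.83 and 7.86, a ratio of -0.45 and -0.42. The mean over its probe sets gave -0.95 in the operated lung, which is under 2-fold. HERC3, a ubiquitin ligase, was under the floor in sham at 7.21 and read 8.55 and 8.003, at least 2.33-fold higher in the non-operated and at least 1.597-fold higher in the operated lung. HERC1 read 10.56, 10.13 and 10.23, and ISG20L2, an exonuclease of ribosome assembly, 8.42, 8.38 and 8.68.

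The arrays also differed in the marker genes of several cell types, and fewer cells of a type and less RNA per cell cannot be told apart in such tissue samples. All 6 B and plasma cell markers on the array had lower signals than sham. Of these, 4 of 6 in the operated and 5 of 6 in the non-operated lung passed 2-fold, against 8.79% and 8.55% of all genes. Their summed linear signal was 28024 in sham, 14934 in the non-operated and 15130 in the operated lung. Of 11 T and NK cell markers, 5 were at least 2-fold lower and 1 higher in each lung, with sums of 5713, 3103 and 2780, and CD4 and PRF1 were under the floor throughout. CD79B, of the B cell receptor, and SPIB, a B cell transcription factor, were above the floor in sham alone, and no marker of either list read 0. These lists moved the same way as PLAC8, IRF8, IFI30, JAK3 and STAT4. IRF8 and PLAC8 are also genes of monocytes or myeloid cells, and the macrophage and monocyte list described next moved the other way. The part of any of these lists in those values was not tested.

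Markers of macrophages and monocytes lay on the other side, with 5 of 8 at least 2-fold higher in each lung and 0 lower. Over all genes, 8.65% in the operated and 8.96% in the non-operated lung were that much higher. The shares over all genes are of those counted above the floor. Marker counts for each cell type are instead out of all its genes on the array, so the bases differ. The macrophage and monocyte sums were 7342 in sham, 24251 in the non-operated and 24343 in the operated lung, though CD14 and FCGR1A were under the floor throughout. Of 4 neutrophil markers 3 were higher, with sums of 1083, 8293 and 6739, while ELANE was under the floor on all arrays. Endothelial markers were higher for 9 of 10 genes in the operated and 8 of 10 in the non-operated lung, with sums of 9038, 30125 and 27284. Of 8 lung epithelial markers 5 were higher in the operated and 3 in the non-operated lung, with sums of 44360, 67659 and 71211. All 4 dendritic cell markers on the array, TCF4, TLR9, XCR1 and CCR7, were under the floor on every array. EIF1AY, a gene of the Y chromosome, read 0.69 in sham against 10.68 in the non-operated and 10.89 in the operated lung, so the sham sample also differs from the others in a gene tied to sex. The part of these differences in the higher antiviral signals was not tested.

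**Figure D3:**
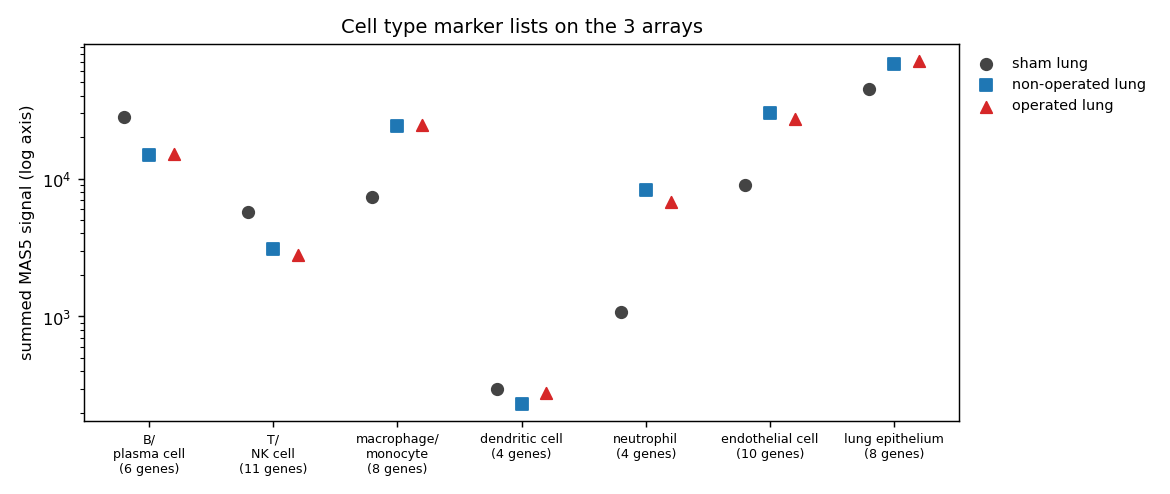
Summed linear MAS5 signal (y axis, log scale) of 7 marker lists (x axis, with the number of genes on the array) on the sham, non-operated and operated arrays. The B cell and T cell sums are highest in sham, and the macrophage, neutrophil, endothelial and epithelial sums are lowest in sham.

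Interferon genes with a singly named probe set were IFNA1, IFNB1, IFNG and IFN-DELTA-1, and all 4 were at or below the floor on every array. IFNA1 read 3.46 in sham, 7.09 in the non-operated and 5.85 in the operated lung, and IFNG 6.56, 5.54 and 5.54. IFNB1 read 0.83, 2.32 and 1.66, and IFN-DELTA-1, an interferon gene of pigs, read 2.09, 2.81 and 5.20. No ratio is given for them, since signals under the floor have no order here.

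Other genes of the pathway were taken from a list of sensors, adaptors, feedback inhibitors, antigen-processing genes and further interferon targets, of which 35 were on the array. In the operated lung 23 were above the floor, with 1 at least 2-fold higher and 4 lower, against 8.65% and 8.79% of all genes. In the non-operated lung 21 were above the floor, with 0 higher and 2 lower, against 8.96% and 8.55% of all genes. The higher gene was PARP12, an interferon-induced ADP-ribosyltransferase, which read 9.07 in sham, 9.86 in the non-operated and 10.08 in the operated lung. SP110, a nuclear body protein, read 9.88, 8.75 and 8.88, and PNPT1, an RNA exonuclease of mitochondria, read 9.42, 8.26 and 8.07, both lower in each lung. PSMB8, an immunoproteasome subunit, read 12.17, 11.31 and 10.89, and CIITA, the class II transactivator, read 8.53, 7.82 and 7.46, lower by 2-fold in the operated lung alone.

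PSMB8 and CIITA lay at -1.29 and -1.07 in the operated and at -0.86 and -0.71 in the non-operated lung. IRF1, a member that interferon gamma induces, lay at 1.16 in the operated and 1.39 in the non-operated lung. IFI30 and IRF8, members that interferon gamma can also induce, were lower than sham by their main probe sets. They lay at -1.48 and -1.32 in the operated and at -1.70 and -1.44 in the non-operated lung. A response to interferon gamma was not tested. Some other interferon gamma targets of the list, named after their values were seen, lay within 2-fold of sham in both lungs. CXCL9, a chemokine, read 11.10 in sham, 11.01 in the non-operated and 11.04 in the operated lung. TAP1, the peptide transporter subunit, read 11.43, 11.36 and 11.48, and WARS, a tRNA synthetase, 9.06, 8.81 and 8.98. The proteasome genes PSMB10 and PSME1 had ratios of -0.39 and -0.44 in the operated and -0.31 and -0.36 in the non-operated lung. The median log2 ratio of the list was -0.09 in the operated and -0.14 in the non-operated lung, beside -0.11 and -0.10 over all genes counted.

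Between the operated and the non-operated lung, 0 of 43 members differed by 2-fold in either direction, and few genes did at all, 0.0607% higher and 0.182% lower of 4944 counted. The members' ratios ran from -0.55 for HERC3 to 0.59 for RSAD2, with a median of -0.01 beside -0.02 over all genes. RSAD2, at 1.505-fold, was the only member at least 1.5-fold apart, beside 1.31% of all genes past that limit on the higher and 2.1% on the lower side. The pooled SD between probe sets in this comparison was 0.22 over 820 genes, and RSAD2 has only 1 probe set, one that shares probes between transcripts, so no second reading stands beside that value. IFIT2 was 1.25-fold higher in the operated lung by its main probe set, whereas the probe set under the floor in sham, was lower there, at 7.33 against 7.68. For OAS1, IFIT3, IFIT1 and ISG15 the ratios were 0.14, 0.14, -0.07 and -0.08, all smaller than that SD. The median absolute ratio of the members was 0.16, beside 0.15 over all genes, against 0.44 and 0.44 in the operated lung and 0.53 and 0.45 in the non-operated lung when set against sham.

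**Figure D4:**
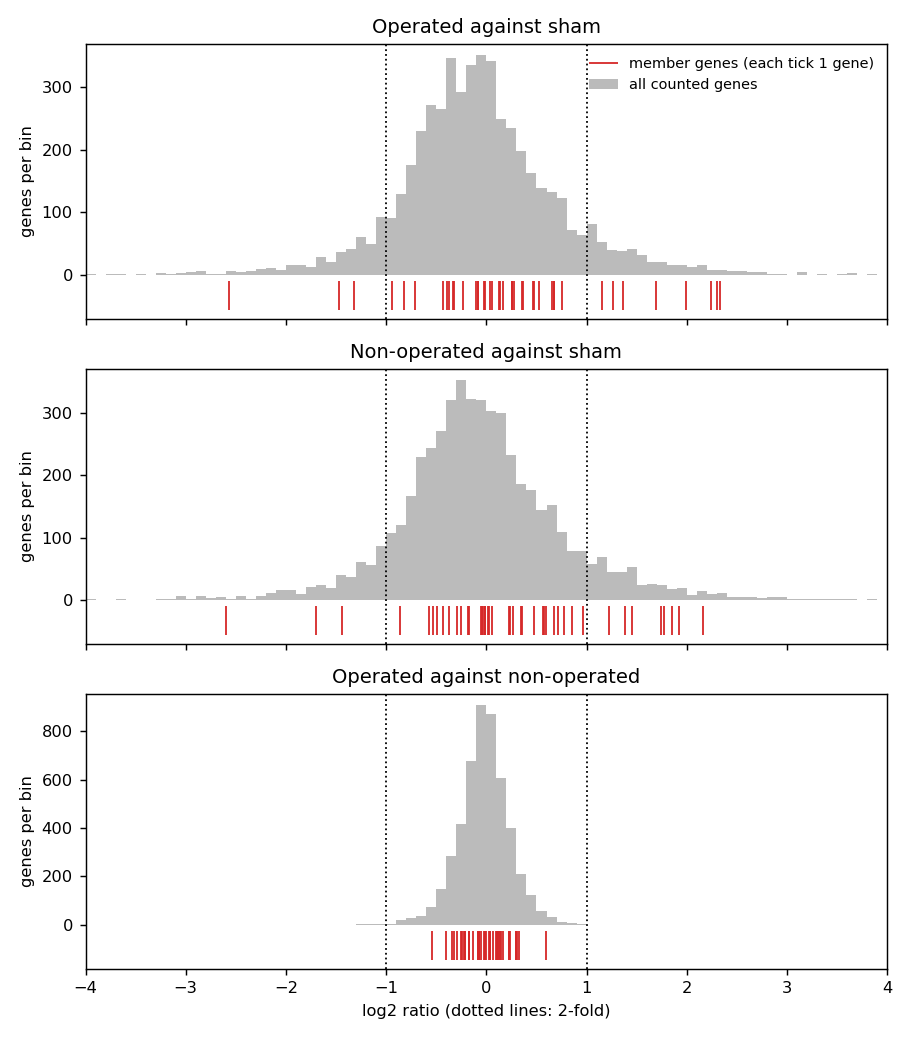
Number of genes per bin of 0.1 (y axis) by log2 ratio (x axis) for all counted genes in each of the 3 comparisons, with a red tick for each of the 43 members and dotted lines at 2-fold. Against sham 8 member ticks lie past 2-fold on the right and 3 on the left in both lungs, and between the lungs all 43 ticks lie inside the lines.

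At a limit of 1.5-fold, 12 of 43 members were higher in the operated and 14 in the non-operated lung, against 16.7% and 17.5% of all genes. The lower side held 6 and 4 members at that limit, against 21.7% and 21.4% of all genes. At stricter limits the higher members were the effector genes only. IFIT1, IFIT2, IFIT3, OAS1 and RSAD2 were at least 3-fold higher in each lung, 5 of 43, against 3.12% of all genes in the operated and 3.31% in the non-operated lung. At 4-fold, 3 members remained in the operated lung (IFIT2, OAS1 and RSAD2) against 1.63% of all genes, and 1 in the non-operated lung (OAS1) against 1.6%. At 3-fold the lower side held PLAC8 in both lungs and IFI30 in the non-operated lung, against 2.88% and 2.8% of all genes. PLAC8 was the single member at least 4-fold lower in either lung, against 1.45% and 1.39% of all genes. With the floor at each array's 75th percentile, IFIT3 and IRF1 were the only higher members past 2-fold in either lung. That was 2 of 29 members counted, against 230 of 3260 genes in the operated and 245 of 3275 in the non-operated lung.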

How the data were processed

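The deposited values are log2 signals, with 1 entry for each probe set on each array. The log2 scale was read from their range. The authors made them with MAS5, per the submitters' processing notes, an Affymetrix method that treats arrays 1 at a time and gives each probe set a single signal. Neither its version nor its scaling target is stated in the labels. RNA was isolated with TRIZOL and turned into biotin-labelled cRNA with a 3' IVT kit, per the labels' protocols. Of 23999 probe sets, 64 reporter controls were left out. The platform's annotation names 1 gene for 10069 of the others, several for 198 and none for 13668. All 43 member gene identifiers matched the RefSeq table of Sscrofa11.1. No sequence table was used here. Values were used as scaled by the authors. Ratios are differences of log2 signal, computed with Python 3.11.15, numpy 2.4.6 and pandas 2.3.3, and 2-fold was the limit for calling a gene higher or lower. The calculation was run on simulated data with large changes in genes well above the floor. That run does not test calls near the floor or near 2-fold. Every member is accounted for, members past 2-fold are named with each array's value, and genes of the pathway list are named when past 2-fold. CXCL9, TAP1, WARS, PSMB10, PSME1, the interferon genes, SFTPC and EIF1AY were named as well, the first 5 after their values were seen. IFN-DELTA-1 was added to the interferon list after the data were seen. Members, lists and limits were chosen with earlier results of these data known. Alternatives were 2 other scalings, 3 other floors, a pseudocount of 50, the mean of all probe sets and limits of 1.5-fold and 3-fold. Leaving out probe sets that share probes between transcripts was added after the data were seen.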

Additional observations from a re-analysis of the deposited data

How the results depend on the processing

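The counts of members past 2-fold against sham were within 1.5 times the main count under quantile normalization, median centring, floors at the 25th percentile or none, a pseudocount of 50, the mean of all probe sets, and without shared probe sets, which leaves RSAD2 and the IRF7 call out. With the floor at the 75th percentile, 2 of 29 members counted were higher in each lung instead of 8 of 43. Of all genes counted at that floor, 230 of 3260 were higher in the operated and 245 of 3275 in the non-operated lung. The members' share was then no larger than that of all genes. A higher floor leaves only a bound where a sham signal lies under it. At 1.5-fold, 14 members were higher in the non-operated lung, 6 were lower in the operated lung, and 1 was higher in the operated than in the non-operated lung. At 3-fold, 5 members were higher in each lung and 1 was lower in the operated lung. No member past 2-fold changed sign in the alternative runs that counted it. Changes of floor, pseudocount or limit can hardly turn the sign of such a difference, so this is not a separate check. Over the scalings, floors, pseudocount and probe set choices, the members' median log2 ratio ran from 0.14 to 0.23 in the operated lung, from 0.06 to 0.24 in the non-operated lung and from -0.02 to -0.01 between the lungs. No paired analysis was possible because each group holds 1 array. The number of arrays limits the precision, and signals under the floor, as for IRF7, MX2 and HERC3 in sham, limit a ratio to a bound.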
